A study of Mus musculus with 12 samples.

Results

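The genes described here are the FGF-ERK pathway and target genes Fgf4, Fgfr1, Spry2, Spry4, Dusp6, Etv4, Etv5, Egr1, Fos and Ier3. They were taken as a list of 10 gene names, and every array probe whose name equalled one of them was used. This gave 15 of the 41174 probes on the array and 9 of its 27666 gene names: 4 probes for Fgfr1, 2 each for Spry2, Spry4 and Etv5, and 1 each for Dusp6, Etv4, Egr1, Fos and Ier3. No probe carried the name Fgf4, which is not analysed here. The cells were E14, an established mouse embryonic stem cell line. They had received esiRNA, a mixture of short interfering RNAs cut from a long double strand, at 0.33 ng/µl with a lipid reagent for 72 hr. The first group had its p400 RNA knocked down (gene Ep400, the ATPase of the Tip60-p400 chromatin complex), the next its Tip60 RNA (gene Kat5, named Htatip on the array, the histone acetyltransferase of that complex), and the control group received esiRNA against the reporter gene EGFP. Every group was thus transfected. Each p400 sample shared an Agilent array with an EGFP sample, 4 arrays in all with the dyes exchanged on arrays 2 and 4, so its values are ratios. Tip60 samples 1 to 4 and EGFP samples 1 to 4 had an array each, in a single colour. Tip60 replicate 3 was left out of the comparison, as the submitters did because its intensity profile was an outlier. The design text calls the replicates biological, and a treatment was of 1 well. Whether the EGFP RNA of the ratio arrays is that of the single-colour arrays is not given in the sources used here.

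As background, Fgf4 is the FGF ligand that embryonic stem cells themselves make, and it acts through receptors such as Fgfr1. The activated receptor signals through Grb2, Sos, Ras, Raf and MEK to the kinases ERK1 and ERK2. ERK then acts on ETS and SRF-partner factors that switch on immediate early genes (Egr1, Fos, Ier3), the ETS factors Etv4 and Etv5, and feedback inhibitors (Spry2, Spry4, Dusp6). In mouse embryonic stem cells this pathway is known for priming cells to leave self-renewal and, in the embryo, for directing cells to primitive endoderm.

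On each array 22188 to 30752 spots were well above background, the lowest on Tip60 replicate 3. All 9 measured genes were tested in both comparisons, through probes well above background on every array that entered. No probe of these genes was saturated. The targeted RNAs were lower where their labels said: Ep400 fell by 0.58 ± 0.09 (SE) on the log2 scale in p400 knockdown on its brightest probe, with array values of -0.65, -0.77, -0.24 and -0.67 (limma, adjusted p = 0.00556). Of its other probes, A_52_P475229 gave -0.72 (adjusted p = 0.00576) and A_52_P670950 gave 0.22 (adjusted p = 0.0787). Kat5 averaged -0.26 ± 0.06 in Tip60 knockdown (SD, n = 3) and 1.23 ± 0.11 in EGFP (SD, n = 4), so that it fell by 1.49 on the log2 scale (adjusted p = 1.34e-05). Kat5 was also lower in p400 knockdown, by 0.43 (adjusted p = 0.0109), whereas Ep400 in Tip60 knockdown had a difference of 0.17 on its brightest probe (adjusted p = 0.0901). Of the others, A_52_P670950 rose by 0.36 (adjusted p = 0.0117) and A_52_P475229 gave 0.04 (adjusted p = 0.795). All 8 embryonic stem cell markers were well above background on every EGFP array. Of these 8, 3 were lower with p400 knockdown (Sox2, Esrrb and Dppa5a), and with Tip60 knockdown Sox2 was lower and Tdgf1 higher. Primitive endoderm genes were higher for 6 of 8 tested with p400 and 5 of 7 with Tip60 knockdown. Both counts include Afp, which was well above background on 0 EGFP arrays and entered through the knockdown arrays alone. Fibroblast genes were higher for 4 of 5 with p400 and 1 of 5 with Tip60 knockdown. The one with Tip60 knockdown was Thy1, at 1.25 (adjusted p = 1.03e-05). Col1a1, Col1a2, Col3a1 and Twist1 were not called there, at -0.11, -0.16, 0.07 and 0.17. The summed level of the 8 primitive endoderm markers, relative to the 75th percentile of the array, was 16.4 to 20.5 on Tip60 arrays and 11.5 to 14.3 on EGFP arrays. That of the fibroblast list was 4.57 to 4.81 on Tip60 arrays and 3.11 to 3.33 on EGFP arrays, with Col6a1, Postn and Lum not well above background on any EGFP array. The embryonic stem cell list summed to 555 to 572 on Tip60 arrays and 482 to 729 on EGFP arrays. The primed epiblast list summed to 33.5 to 39.1 on Tip60 arrays and 38.2 to 41.2 on EGFP arrays. Primed epiblast genes were higher for 3 of 6 with p400 knockdown, and 1 rose and 1 fell of 6 with Tip60 knockdown. The one that rose, Sox3, entered through the 3 Tip60 arrays, since only 2 of 4 EGFP arrays read it well above background. Their part in the results below was not tested, and fewer cells of a type cannot be told apart from less RNA per cell.

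With p400 knockdown, Spry2, Egr1 and Fos rose and Ier3 fell, while Fgfr1, Spry4, Dusp6, Etv4 and Etv5 did not pass the threshold. Thus 3 of 9 genes were higher and 1 of 9 lower at a Benjamini-Hochberg adjusted p under 0.05, in a comparison where 20.1% of the 18690 genes tested were called higher and 15% lower. The median log2 fold change of the 9 genes was 0.22, against 0.01 for all genes tested. The direction of the 6577 calls moved with the normalization: 57.2% were higher with loess, against 29.8% of calls with median centring and 73.1% after scaling the arrays to a common spread. The 9 genes moved with it: median centring called 3 higher and 3 lower, with a median of -0.11, as Fgfr1 (-0.43, adjusted p = 0.0127) and Etv4 (-0.33, adjusted p = 0.0195) were then called lower. Median centring put the median of all genes at -0.11. After scaling to a common spread, 2 were called higher and 0 lower, and 5 of the 9 had an unadjusted limma p under 0.05. Values below are log2 ratios of p400 knockdown over EGFP on arrays 1 to 4.

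**Figure D1:**
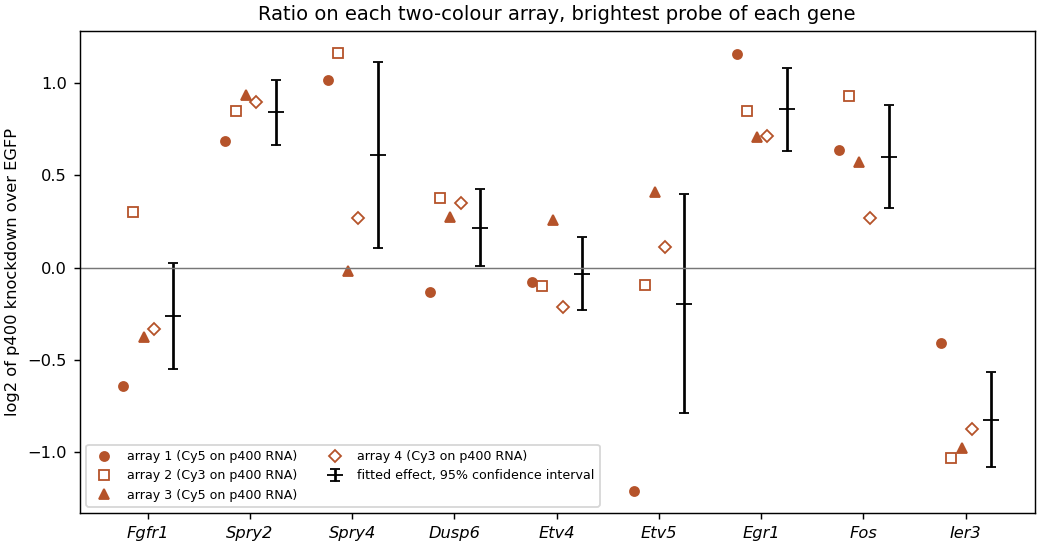
The log2 ratio of p400 knockdown over EGFP (vertical axis) is plotted for 9 genes on arrays 1 to 4, with filled symbols where p400 RNA carried Cy5 and open symbols where it carried Cy3; black bars are fitted effects with 95% confidence intervals. Spry2, Egr1 and Fos lie above 0 and Ier3 below 0 on every array, whereas the ratios of Fgfr1, Spry4, Dusp6, Etv4 and Etv5 lie on both sides of 0.

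The receptor is taken first. Fgfr1, a receptor tyrosine kinase that binds FGF4, had ratios of -0.64, 0.30, -0.38 and -0.33 on its brightest probe. Array 2 stood on the other side of 0 from the rest, and the fitted effect of -0.26 ± 0.12 (SE) did not pass (adjusted p = 0.131). Without array 2 it was -0.42 with an adjusted p of 0.0436. The 4 Fgfr1 probes gave effects of -0.27, -0.27, -0.26 and -0.02, none past the threshold. Of these A_51_P109469 (chr8:24330044-24330103, build mm7, plus strand) and A_52_P668810 (chr8:24330065-24330124) overlap and so are not separate measurements.

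Of the feedback inhibitors, Spry2 showed the most even rise. Spry2, a Sprouty protein that blocks signalling between receptor and ERK, had ratios of 0.68, 0.85, 0.93 and 0.89. Its effect of 0.84 ± 0.07 (SE), a 1.79-fold rise, had an adjusted p of 0.00137. Its probe is A_52_P368532 (chr14:100321854-100321913, mm7, minus strand). A probe further 5′ in the gene, A_51_P445153 (chr14:100322370-100322429), also rose, by 0.45 ± 0.09 (adjusted p = 0.0131). Spry4, its paralogue, had ratios of 1.02, 1.16, -0.02 and 0.27, high on arrays 1 and 2 and near 0 on array 3. The effect of 0.61 ± 0.21 did not pass (adjusted p = 0.0651), but passed without array 3 (0.87, adjusted p = 0.0285) or without array 4 (0.83, adjusted p = 0.0298). It also passed with the values of the authors' series matrix (0.645, adjusted p = 0.0259), and 3 of 12 alternatives called it. The other Spry4 probe, A_51_P250422, gave 0.50 ± 0.11 (adjusted p = 0.0174), so the probes of Spry4 fell on different sides of the threshold with the same sign. Dusp6, the cytoplasmic phosphatase that removes the activating phosphates of ERK, had ratios of -0.13, 0.38, 0.28 and 0.35. Its effect of 0.22 ± 0.09 did not pass (adjusted p = 0.0988). It passed without array 1, at 0.32 (adjusted p = 0.0337).

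The ETS factors did not pass with loess. Etv4, which binds ETS sites downstream of FGF receptors, had ratios of -0.08, -0.10, 0.26 and -0.21 and an effect of -0.03 ± 0.08 (adjusted p = 0.777). Its 95% confidence interval was -0.23 to 0.16, and it was called lower with median centring, as given above. Etv5, a close relative that mouse embryonic stem cells also express, had ratios of -1.21, -0.10, 0.41 and 0.11. Array 1 stood far below the others, and the effect of -0.20 ± 0.24 had an adjusted p of 0.567. Without array 1 the effect was 0.21 (adjusted p = 0.126), and without array 3 it was -0.60 (adjusted p = 0.0126), so its sign rests on single arrays. The second Etv5 probe, A_51_P323579, gave 0.11 ± 0.10 (adjusted p = 0.422).

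The immediate early genes moved in opposite directions. Egr1, a zinc finger factor induced within minutes of ERK activation, had ratios of 1.16, 0.85, 0.71 and 0.71, all above 0. The effect was 0.86 ± 0.09 (SE), a 1.81-fold rise (adjusted p = 0.00224). Fos, a subunit of the AP-1 factor, was read by 10 spots of a probe at chr12:83478431-83478490 (mm7, plus strand). Its ratios were 0.63, 0.93, 0.57 and 0.27, lowest on array 4. The effect was 0.60 ± 0.11, a 1.52-fold rise (adjusted p = 0.0111). Ier3, a small early response protein known to prolong ERK activity and to affect cell survival, was read by a probe at chr17:33924245-33924304 (mm7, plus strand). Its ratios were -0.41, -1.03, -0.98 and -0.88. All 4 were below 0, least so on array 1, and the effect was -0.82 ± 0.11, 1.77-fold lower in p400 knockdown (adjusted p = 0.00356). The exon or UTR in which each probe lies was not looked up, as no annotation of mm7 was used here.

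For 3 of the genes past the threshold, the 250 bases before the RefSeq transcription start (build GRCm38.p6) are shown here so that the rising Spry2 and Fos can be set beside the falling Ier3. Of the 9 genes, 5 had an entry in the promoter table. They are the minus strand of chr14:105896820-105897069 for Spry2, and the plus strands of chr12:85473640-85473889 for Fos and chr17:35821463-35821712 for Ier3. Capitals mark matches, on either strand, to motifs of factors that ERK or cyclic AMP signalling acts through and of basal promoters. They were the CArG box by name, the cyclic AMP response element TGACGTCA with its core TGACGT, the AP-1 site TGANTCA, the ETS site CGGAAGT and the EGR site GCGNGGGCG. The TATA box TATAAA and the CCAAT box, letters as named, were searched as well. The core also matches within the full element. The core and the CCAAT box were added after the sequences had been seen.
Spry2: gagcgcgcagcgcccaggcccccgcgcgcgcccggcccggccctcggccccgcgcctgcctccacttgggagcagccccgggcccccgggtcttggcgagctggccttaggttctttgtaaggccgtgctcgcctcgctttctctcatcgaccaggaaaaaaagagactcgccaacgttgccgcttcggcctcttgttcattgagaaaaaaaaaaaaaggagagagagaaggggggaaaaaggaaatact
Fos: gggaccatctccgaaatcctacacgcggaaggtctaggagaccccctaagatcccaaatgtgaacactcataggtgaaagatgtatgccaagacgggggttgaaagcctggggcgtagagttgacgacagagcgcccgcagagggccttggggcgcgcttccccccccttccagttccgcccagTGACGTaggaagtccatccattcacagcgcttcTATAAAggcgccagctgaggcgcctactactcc
Ier3: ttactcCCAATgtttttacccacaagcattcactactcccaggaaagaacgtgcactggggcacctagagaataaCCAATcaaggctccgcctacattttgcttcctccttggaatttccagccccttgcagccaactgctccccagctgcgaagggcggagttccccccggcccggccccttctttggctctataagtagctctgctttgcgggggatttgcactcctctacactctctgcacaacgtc
Spry2 held none of these letters in this window. Fos held TGACGT, the core of the cyclic AMP response element, 66 bases before the start and TATAAA 33 bases before it. Ier3 held CCAAT at 244 and at 175 bases before the start. CCAAT was also found in the windows of Dusp6 and Etv5, which did not pass with p400 knockdown, and in that of Fgf4. Bases further upstream were not searched, so a motif absent from these windows may lie beyond them. Over all 32851 windows of the same length, TGACGT was found in 6.47%, TATAAA in 12.4%, CCAAT in 33.8%, the CArG box in 1.47% and CGGAAGT, an ETS site, in 4.92%. The share of G and C was 62.4% for Spry2, 58.4% for Fos and 54.4% for Ier3.

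With Tip60 knockdown, Egr1 and Fgfr1 fell, and none of the 9 genes rose past the threshold. That is 0 of 9 higher and 2 of 9 lower, where 15.3% of 16948 genes tested were called higher and 10.3% lower. At an unadjusted limma p under 0.05, 1 was higher (Fos) and 3 were lower. The median log2 fold change of the 9 genes was 0.05, against 0.01 for all genes tested. With quantile normalization the 4331 calls became 4441, and the share of higher ones 47.2% in place of 59.7%. The values that follow are log2 processed signal minus the array's 75th percentile, for Tip60 replicates 1, 2 and 4 and then EGFP replicates 1 to 4. They compare samples of 1 probe and not genes with each other.

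**Figure D2:**
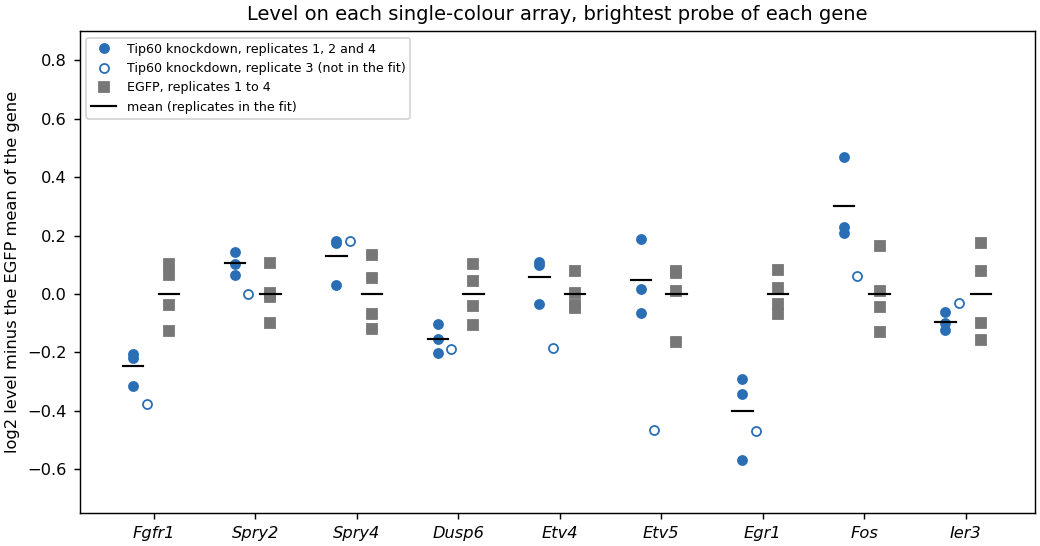
The log2 level of each gene (vertical axis, minus the gene's EGFP mean) is plotted for Tip60 knockdown (circles; open for replicate 3, which is not in the fit) left of EGFP (squares), with black lines at the means of the samples in the fit. The Tip60 samples in the fit lie below all EGFP samples for Egr1 and Fgfr1 and above them for Fos, where replicate 3 lies within the EGFP range. The groups overlap for the other genes, and the share of all genes tested whose groups do not overlap is not given here.

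Fgfr1 had levels of -1.04, -1.05 and -1.15 in Tip60 knockdown, against -0.77, -0.96, -0.87 and -0.73 in EGFP. The groups did not overlap, and the difference of -0.25 ± 0.07 (SE) just passed (adjusted p = 0.0409). It is 1.19-fold lower in Tip60 knockdown. This call was lost when any of Tip60 replicates 1, 2 and 4 or EGFP replicates 1, 3 and 4 was left out, with differences from -0.27 to -0.21. It was also lost with slide as a block, at -0.25 (adjusted p = 0.0521). The other 3 Fgfr1 probes gave -0.18, -0.11 and -0.16, none past the threshold.

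The feedback inhibitors did not pass on their brightest probes. Spry2 had 2.26, 2.30 and 2.34 in Tip60 knockdown, against 2.19, 2.30, 2.20 and 2.10 in EGFP, and the groups overlapped. The difference was 0.10 ± 0.06 (adjusted p = 0.267), with a 95% confidence interval of -0.04 to 0.25. Spry4 had -0.95, -0.95 and -1.10 in Tip60 knockdown, against -1.20, -0.99, -1.08 and -1.25 in EGFP, again overlapping. The difference was 0.13 ± 0.08 (adjusted p = 0.281). Its dimmer probe A_51_P250422 read otherwise, at -3.70, -3.45 and -3.62 in Tip60 knockdown against -4.47, -4.55, -4.25 and -4.79 in EGFP. There the groups did not overlap and the difference was 0.92 ± 0.13 (adjusted p = 0.00244), with the probe well above background on all 3 Tip60 arrays and 3 of 4 EGFP arrays. The file places only 14 bases of that probe on the genome (chr18:38962445-38962458, mm7), beside the 60 of the brighter one (chr18:38962470-38962529). Dusp6 had 4.22, 4.18 and 4.28 in Tip60 knockdown, against 4.34, 4.48, 4.28 and 4.43 in EGFP. The lowest EGFP sample fell level with the highest Tip60 sample, and the difference was -0.15 ± 0.07 (adjusted p = 0.134).

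The ETS factors overlapped the EGFP samples. Etv4 had 2.46, 2.60 and 2.61 in Tip60 knockdown, against 2.50, 2.45, 2.46 and 2.58 in EGFP, a difference of 0.06 ± 0.06 (adjusted p = 0.539). Etv5 had -0.06, 0.19 and 0.02 in Tip60 knockdown, against 0.09, -0.16, 0.08 and 0.02 in EGFP, a difference of 0.05 ± 0.09 (adjusted p = 0.744). The second Etv5 probe gave 0.17 ± 0.06 (adjusted p = 0.0903).

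Among the immediate early genes, Egr1 had 1.70, 1.42 and 1.65 in Tip60 knockdown, against 2.01, 2.07, 1.92 and 1.96 in EGFP. All Tip60 samples lay below all EGFP samples, as did replicate 3 at 1.52. The difference was -0.40 ± 0.08 (SE), 1.32-fold lower in Tip60 knockdown (adjusted p = 0.0108). Fos had -2.95, -2.93 and -2.69 in Tip60 knockdown, against -2.99, -3.20, -3.15 and -3.29 in EGFP. The groups did not overlap, but replicate 3, at -3.10, lay within the EGFP range. The difference of 0.30 ± 0.09 did not pass (adjusted p = 0.0560). It passed without EGFP replicate 1, at 0.36 (adjusted p = 0.0394), and with slide as a block, at 0.28 (adjusted p = 0.0426). With only probes well above background on all 7 arrays in the fit, its adjusted p was 0.0478. These were the only 3 of 18 alternatives that called Fos. The difference was 0.15 with normexp background correction (adjusted p = 0.196) and 0.13 with quantile normalization (adjusted p = 0.373). Ier3 had 0.22, 0.25 and 0.19 in Tip60 knockdown, against 0.22, 0.49, 0.39 and 0.16 in EGFP, with overlapping groups and a difference of -0.09 ± 0.09 (adjusted p = 0.485).

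The single-colour arrays lay on a pair of slides that held both groups: Tip60 2 and 4 with EGFP 1 and 3 on slide 2, and Tip60 1 with EGFP 2 and 4 on slide 3. The Egr1 difference was -0.43 within slide 2 (adjusted p = 0.0785) and -0.32 within slide 3 (adjusted p = 0.182), and -0.38 with slide as a block (adjusted p = 0.0124). The Fgfr1 difference was -0.28 within slide 2 (adjusted p = 0.114) and -0.19 within slide 3 (adjusted p = 0.458). The Fos difference was 0.26 within slide 2 (adjusted p = 0.244) and 0.29 within slide 3 (adjusted p = 0.191). Slide 3 holds 1 Tip60 sample in this fit, which is assumed to vary like the EGFP samples. All 4 p400 arrays were on slide 1.

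The test of the difference between the knockdowns asked which genes responded unlike to the loss of each subunit. Egr1, Spry2 and Ier3 differed, 3 of the 9 genes, where 4.77% of 16850 genes tested were called in either direction. For Egr1 the p400 effect exceeded the Tip60 effect by 1.26 ± 0.12 (SE, adjusted p = 0.0202), since it rose in p400 knockdown and fell in Tip60 knockdown. For Spry2 the excess was 0.74 ± 0.10 (adjusted p = 0.0261). For Ier3 the p400 effect was lower by 0.73, written -0.73 ± 0.14 (adjusted p = 0.0437). These differences were not rerun under another normalization of the p400 arrays. After scaling to a common spread, limma no longer called the p400 effects of Spry2 (adjusted p = 0.0665) and Ier3 (adjusted p = 0.0588). The remaining 6 did not pass, with adjusted p from 0.103 for Dusp6 to 0.956 for Fgfr1. For Fgfr1 the effects were -0.26 with p400 and -0.25 with Tip60 knockdown, and the 95% confidence interval of their difference was -0.35 to 0.31. For Dusp6, at 0.37, the interval was 0.11 to 0.64, and with degrees of freedom combined from both fits in place of the smaller it was called (adjusted p = 0.0388). The interval for Spry4, at 0.48, was -0.05 to 1.01. For Fos, at 0.30, it was -0.06 to 0.66. For Etv4 and Etv5 the differences were -0.09 and -0.24, with intervals of -0.34 to 0.16 and -0.86 to 0.38. The knockdowns were read on different array formats, ratio and single-colour, so differences of scale between the formats enter these values. Differences of processing enter too, here and for other genes below: p400 used normexp with an offset, Tip60 the processed signal. For Fos, the p400 effect of 0.60 was 0.88 with the deposited LogRatio, and the Tip60 effect of 0.30 was 0.15 with normexp. Under these settings Egr1 had 0.89 and -0.40, Spry2 0.84 and 0.09, and Ier3 -0.99 and -0.07. A difference with like processing for both knockdowns was not tested.

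**Figure D3:**
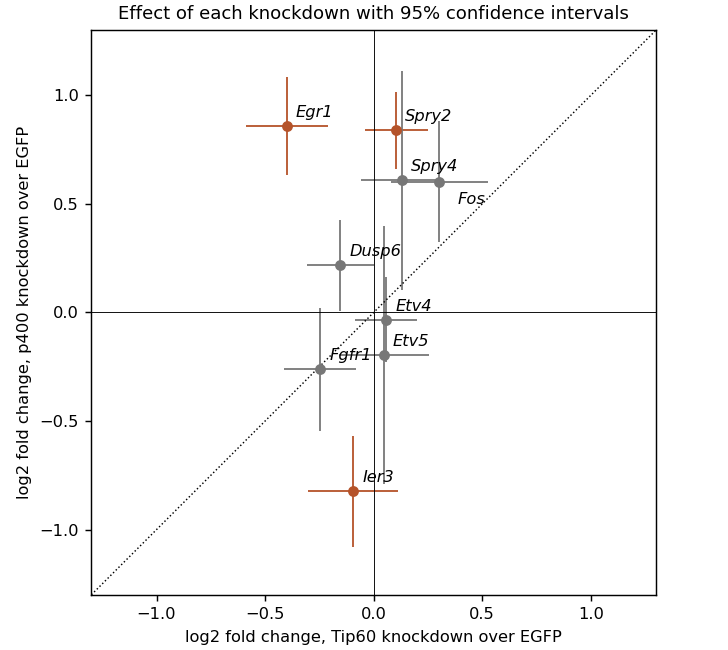
Each gene is placed by its log2 fold change in Tip60 knockdown over EGFP (horizontal axis) and in p400 knockdown over EGFP (vertical axis), with 95% confidence intervals; orange marks the 3 genes whose effects differed at an adjusted p under 0.05, and the dotted line marks equal effects. Egr1 and Spry2 lie above the line, Ier3 below it and Fgfr1 on it.

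**Figure D4:**
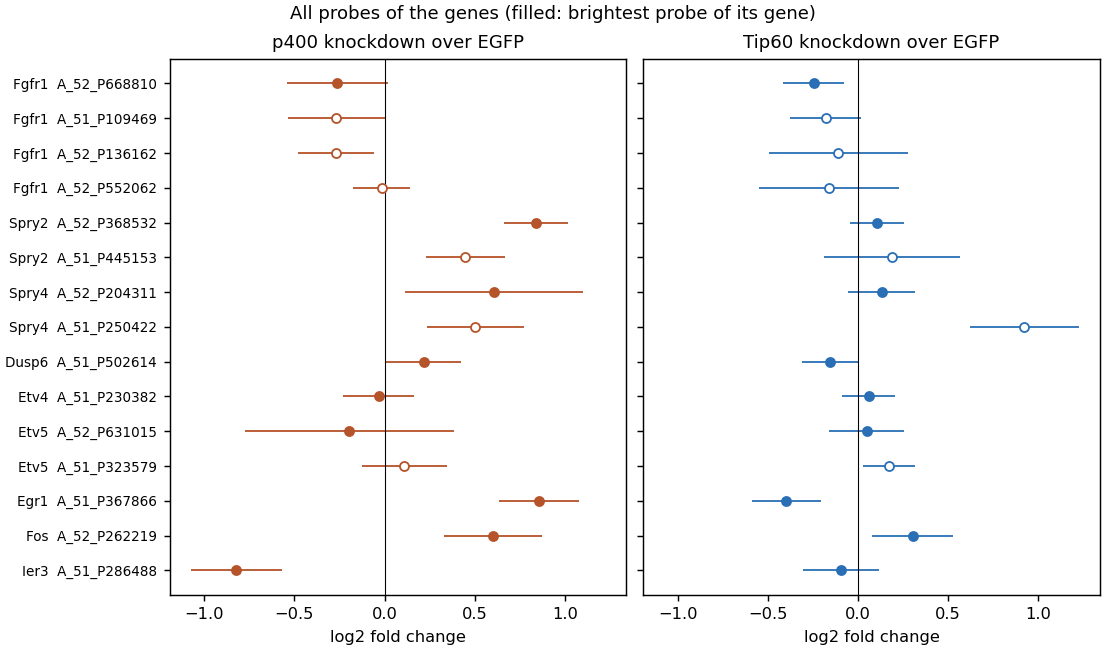
Log2 fold changes of all 15 probes (horizontal axes) are shown with 95% confidence intervals for p400 knockdown (left) and Tip60 knockdown (right), filled for the brightest probe of each gene. Probes of 1 gene shared a sign except those of Etv5 with p400 knockdown, and the widest gap between probes of a gene is that of Spry4 with Tip60 knockdown, 0.13 against 0.92.

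A further list of 75 genes of the same pathway was counted by role, and 74 had a probe. With p400 knockdown 69 were tested, of which 18 rose and 12 fell, with a median log2 fold change of 0.06. This balance turned with the normalization: median centring gave 13 higher and 27 lower with a median of -0.13, and scaling to a common spread gave 11 higher and 3 lower. With Tip60 knockdown 67 were tested, of which 8 rose and 14 fell, with a median of -0.07. These counts stand beside the shares of all genes given above for each comparison. Without array 2, the p400 count became 19, and within slide 2 the Tip60 count became 8.

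The further list held 8 FGF ligands: Fgf1, Fgf2, Fgf3, Fgf5, Fgf8, Fgf10, Fgf15 and Fgf17. Other FGF ligands were not counted. Of those listed, 4 of 7 tested rose with p400 and 4 of 6 with Tip60 knockdown, and none fell past the threshold. At an unadjusted limma p under 0.05, 1 fell in each, and with median centring 1 of 7 fell with p400 knockdown past the threshold. Fgf1, Fgf8 and Fgf15 rose in both. Fgf5 passed with p400 knockdown only, at 0.74 against 0.13 with Tip60 knockdown, and Fgf3 with Tip60 knockdown only. Neither differed between the knockdowns past the threshold (adjusted p = 0.0527 and 0.074). Fgf5 is also among the primed epiblast genes counted above. Fgf1, an FGF that binds all FGF receptors, had p400 ratios of 2.66, 2.98, 3.08 and 2.04 and an effect of 2.69 ± 0.16 (adjusted p = 0.000537). With Tip60 knockdown Fgf1 had -0.40, -0.38 and -0.24, against -3.14, -3.50, -3.38 and -3.24 in EGFP, a difference of 2.98 ± 0.10 (adjusted p = 1.96e-06). The groups were far apart, and the p400 and Tip60 effects on Fgf1 did not differ past the threshold (-0.28, 95% confidence interval -0.74 to 0.17). Fgf15, the mouse counterpart of human FGF19, rose by 1.19 with p400 (adjusted p = 0.00455) and by 0.74 with Tip60 knockdown (adjusted p = 0.000134). Fgf3 rose by 0.72 with Tip60 knockdown (adjusted p = 0.0136) and had an effect of 0.06 with p400 knockdown. A gene dim in EGFP samples was tested only where bright in the knockdown, but Fgf1, Fgf15 and Fgf3 were well above background on every EGFP array.

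Of the other receptors, Fgfr2, Fgfr3, Fgfr4 and Fgfrl1, none passed with p400 knockdown, also at an unadjusted limma p under 0.05 (0 of 4), though 1 was lower with median centring, and 1 of 4, Fgfr4, rose with Tip60 knockdown, by 0.28. Of 8 adaptors, 1 rose and 1 fell in each knockdown. Sos2, an exchange factor that loads Ras with GTP, fell by 0.48 with p400 (adjusted p = 0.0193) and by 0.35 with Tip60 knockdown (adjusted p = 0.00586). Grb2, which links the receptor to Sos, rose by 0.91 with p400 and by 0.32 with Tip60 knockdown. Of 14 kinase cascade genes, 3 rose and 4 fell with p400 knockdown, and 1 rose and 2 fell with Tip60 knockdown. With median centring the p400 counts were 1 higher and 8 lower. Ksr1, a scaffold for Raf, MEK and ERK, rose by 0.97 with Tip60 knockdown (adjusted p = 0.000598) and by 0.91 with p400 knockdown (adjusted p = 0.00265). Mapk3, which encodes ERK1, fell by 0.47 with p400 and by 0.33 with Tip60 knockdown. After scaling to a common spread, the p400 falls of Sos2 (-0.52, adjusted p = 0.0913) and Mapk3 (-0.55, adjusted p = 0.0601) were not called. Fgfr4, Grb2 and Mapk3 were singled out after their values were seen.

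Of 12 tested inhibitors, 5 rose and 1 fell with p400 knockdown, whereas none rose and 3 fell with Tip60 knockdown. The p400 counts were 2 higher and 5 lower with median centring, and 2 higher and 0 lower after scaling to a common spread. The 5 that rose were the phosphatases Dusp1, Dusp2, Dusp4 and Dusp9 and the ERBB inhibitor Errfi1, with effects of 0.26, 0.96, 0.43, 0.43 and 0.77. With median centring Dusp1 had -0.04, and Dusp2 and Errfi1 alone of the 5 were still called higher. After scaling to a common spread, the 2 called were Dusp2 (adjusted p = 0.0226) and Dusp9 (adjusted p = 0.0334), and Errfi1 was not (adjusted p = 0.0635). All 5 were named after their values were seen. The difference between the knockdowns passed for Dusp2, at 0.84 (adjusted p = 0.0417), and for Errfi1, at 0.72 (adjusted p = 0.0386), and for no other inhibitor of the 12. At an unadjusted limma p under 0.05, the Tip60 count was 0 higher and 6 lower.

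Of the transcription factors and targets, 5 of 24 rose and 6 fell with p400 knockdown, and 1 of 23 rose and 8 fell with Tip60 knockdown. With median centring the p400 counts were 5 higher and 10 lower. Myc, a growth-promoting factor, rose by 1.52 ± 0.12 with p400 knockdown (adjusted p = 0.00115), with ratios of 1.07, 1.52, 1.75 and 1.73. After scaling to a common spread its effect was 1.82 (adjusted p = 0.0742). With Tip60 knockdown it had a difference of 0.29 (adjusted p = 0.0509), and the effects differed by 1.23 (adjusted p = 0.0244). Ier5, an early response gene, rose by 1.34 with p400 (adjusted p = 0.00284) and by 0.35 with Tip60 knockdown (adjusted p = 0.00983). Ccnd1, the cyclin D1 gene through which ERK is known to promote entry into the cell cycle, fell in both. It fell by 0.91 ± 0.07 with p400 knockdown (adjusted p = 0.00126) and by 0.62 ± 0.06 with Tip60 knockdown (adjusted p = 0.000266). Maff, a small Maf factor, fell by 0.73 (adjusted p = 0.00137) and Elk3, an SRF partner of the ETS family, by 0.54 with p400 knockdown (adjusted p = 0.00334). The Maff call was lost after scaling to a common spread, at -0.87 (adjusted p = 0.0635). With Tip60 knockdown the AP-1 genes Junb and Jund fell by 0.51 (adjusted p = 0.00226) and 0.49 (adjusted p = 0.00159), and Srf, the serum response factor, by 0.43 (adjusted p = 0.00158). Over the 67 genes tested in both, the p400 effect was higher past the threshold for 7 and lower for 1. Of all 16850 genes tested for a difference, 4.77% were called in either direction. The share in each direction is not given here, so the balance of 7 to 1 has none to stand beside. The direction of the p400 calls moved with the normalization, as given above. The 7 were Myc, Egr4, Ier5, Phlda1, Dusp2, Errfi1 and Grb2, and the lower one was Maff. Egr4 and Phlda1 were named after their values were seen. Like Egr1 among the genes above, Egr4 rose with p400 knockdown, by 1.01, and had a Tip60 value of -0.12 that did not pass.

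**Figure D5:**
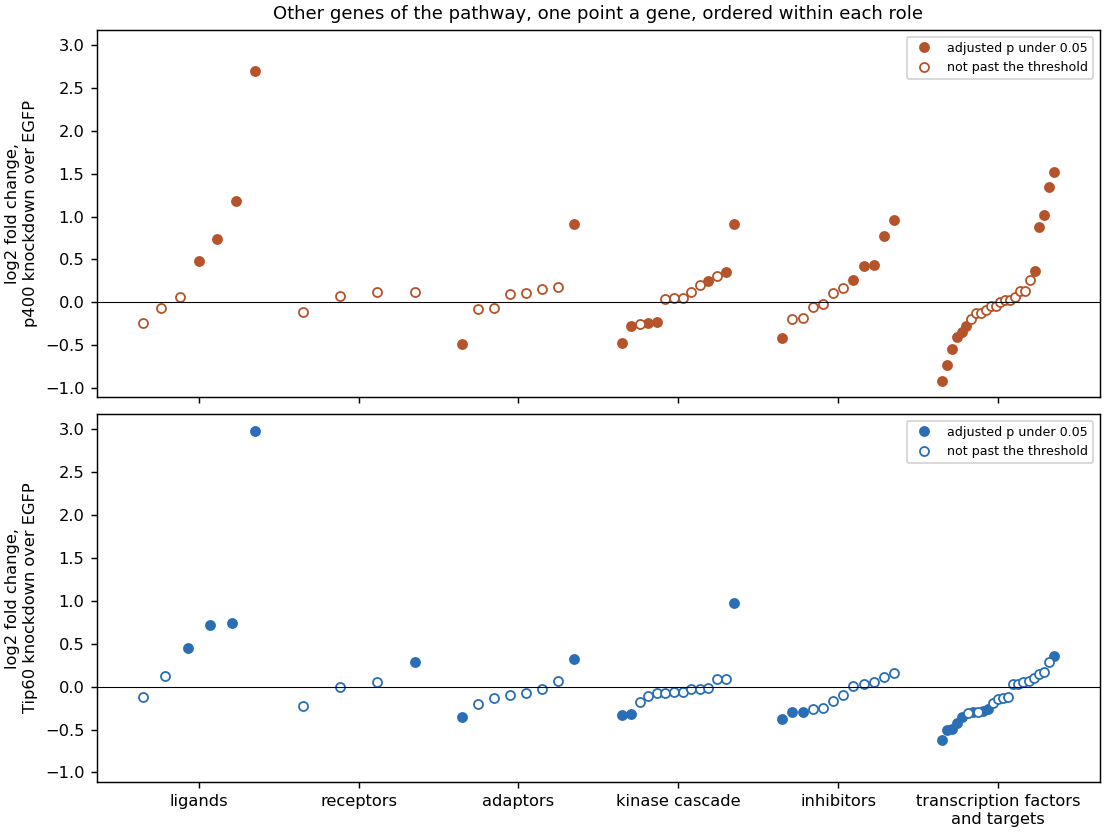
Log2 fold changes over EGFP (vertical axes) are shown for the other pathway genes by role, p400 knockdown in the upper panel and Tip60 knockdown in the lower, with 1 point a gene and filled points past an adjusted p of 0.05. Fgf1 is the highest point of both panels, at 2.69 and 2.98, and Ccnd1 the lowest, at -0.91 and -0.62.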

How the data were processed

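Scanner files of 12 arrays (Agilent design 014868) were used. Per the file headers, Feature Extraction 9.5.1.1 gave spot intensity, background and a processed signal. The deposited LogRatio is a log10 ratio of red over green. The authors' series matrix holds log2 values whose normalization is not given in the sources used here: its ratio columns have medians of 0 to 0.01, and the single-colour columns follow log2 median signal. Flags deposited per spot, of no measurement unit, marked outliers, background and saturation.

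For p400, mean intensity less median background was corrected with normexp (offset 50) and loess-normalized within arrays, and limma 3.58.1 (R 4.3.3) fitted knockdown, coded by dye, with a dye term. For Tip60, log2 processed signal minus the array's 75th percentile was fitted with lmFit and eBayes, replicates 1, 2 and 4 against EGFP 1 to 4. The 1639 control spots and outlier-flagged spots were left out and replicate spots averaged. Probes entered if 3 or more arrays of a knockdown or of EGFP flagged them well above background, and each gene took its brightest such probe. Probes were named from RefSeq by accession (23070), symbol (6585) or synonym (3077), or kept the file's name (8442). P-values are two-sided and Benjamini-Hochberg adjusted over every gene in a fit, and called under 0.05. The difference of the effects used the smaller degrees of freedom. Intervals are at 95%. The fits were tested on simulated data.

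The members, the further pathway list, the marker lists and the tests were chosen with earlier results of these data known. Named in the text are all members, Ep400, Kat5, per comparison the 4 largest rises and falls of the further list, and other genes of the lists that complete a count or were named after their values were seen. Alternatives covered background correction, normalization, filter, probe level, series matrix, slide, replicate block and single arrays left out. The number of arrays limits the precision.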

Additional observations from a re-analysis of the deposited data

Results flagged for a closer look

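Egr1 stood out because its response differed between the knockdowns, by 1.26 on the log2 scale (p400 minus Tip60), with all 4 p400 ratios above 0 and all 3 Tip60 samples below all EGFP samples. Spry2 differed by 0.74, with all 4 p400 ratios above 0 and overlapping Tip60 and EGFP samples. Ier3 differed by -0.73, with all 4 p400 ratios below 0 and overlapping Tip60 and EGFP samples. On the dimmer Spry2 probe, A_51_P445153, EGFP replicate 3 had a level of 0.12, apart from the other EGFP samples, which lay between -0.06 and -0.05. Of 30 such tests of 4 values, this was the only one past Dixon's critical value at 95%, and chance alone passes about 1 in 20.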

How the results depend on the processing

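Under 12 alternatives for p400 and 18 for Tip60, 1 of them (within slide 3) chosen after seeing the data, the p400 calls of Egr1 (0.59 to 0.97) and Fos (0.44 to 0.88) stood under all 12. Those of Spry2 (0.98, adjusted p = 0.0665) and Ier3 (-0.97, adjusted p = 0.0588) were lost only with arrays scaled to a common spread. There the p400 count was 3065 genes, 2 members and 14 other pathway genes. With a fold change of at least 1.5 as well, it was 1774 genes and 13 other pathway genes. Median centring moved the median of all genes to -0.11 and Dusp6 to -0.11, and added calls of Etv4 (-0.33) and Fgfr1 (-0.43) as lower. Leaving out single arrays gave 3134 to 5741 genes, 5 to 6 members and 19 to 27 other pathway genes, with Etv5 at -0.60 to 0.21 and Etv4 at -0.12 to 0.050.

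The Tip60 call of Egr1 stood under 15 of 18 alternatives and that of Fgfr1 under 6 of 18. Members called fell to 1 with normexp or with no filter. Within slide 2 the count was 1965 genes, 0 members and 8 other pathway genes, within slide 3 it was 1876 genes, 0 members and 5 other pathway genes, and at a fold change of at least 1.5 it was 1419 genes, 0 members and 5 other pathway genes. Leaving out single samples gave 3148 to 3694 genes, 1 to 2 members and 17 to 21 other pathway genes. Etv4 changed sign with Tip60 replicate 3 (-0.0029) and within slide 3 (-0.051). Etv5 did so with Tip60 replicate 3 (-0.081), without Tip60 replicate 2 and without EGFP replicate 2, with a range of -0.0245 to 0.10 when single samples were left out. The deviations of same-numbered Tip60 and EGFP samples had r of -0.29, -0.38 and -0.12. Each of these pairs lay on different slides. Pairs on the same slide had r from -0.26 (Tip60 4 and EGFP 3) to 0.62 (Tip60 2 and EGFP 3). All pairs on different slides had r from -0.45 (Tip60 1 and EGFP 3) to 0.03 (Tip60 4 and EGFP 2). Slide and number are thus mixed in these values, which cannot tell whether the numbers pair the samples. With a replicate block, limma called 1856 genes, 0 members and 9 other pathway genes. At an unadjusted p under 0.05, limma gave 2 members with the block, 2 within slide 2, 1 within slide 3 and 4 where the fold was dropped from the rule.

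The difference test called 2485 of 16850 genes with Welch-Satterthwaite degrees of freedom, against 804 with the smaller degrees of freedom. There Dusp6 joined Egr1, Spry2 and Ier3 as a called member (0.37, adjusted p = 0.0388). With Tip60 replicate 3 the members called were 3. With Tip60 replicate 3 the Fgfr1 difference was 0.017. Other normalizations and background corrections were not carried into the difference test. Where a call was lost or a sign changed, the cause was not tested, except that leaving out samples or slides leaves fewer of them.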
